A study of Mus musculus with 6 samples.

Results

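The enzymes that make prostaglandins, thromboxane and leukotrienes were followed through RNA-seq of 6 mice with lung cancer. The members were 10 genes out of the 18238 in the deposited tables, chosen by name for their role: the cyclooxygenases Ptgs1 and Ptgs2, the prostanoid synthases Ptges, Ptgis and Tbxas1, the lipoxygenases Alox5, Alox12 and Alox15, and the leukotriene partners Alox5ap and Ltc4s. The choice was made with earlier results of these data known. All 10 were found in both tables and all 10 passed the filter on low counts. The 3 mice given artemisinin (artemisinin replicates 1 to 3) were set against 3 mice with lung cancer that are labelled only as the model (model replicates 1 to 3). Artemisinin is the endoperoxide drug of Artemisia annua used against malaria. How the lung cancer was made, the tissue sampled, the strain, age, dose and duration are not given in the sources used here, and nothing beyond the word mice in the design text says that the libraries came from separate animals. The p-values measure the spread between these libraries.

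Eicosanoids are signalling lipids made from arachidonic acid, which phospholipases A2 cut from membranes. Cyclooxygenases turn it into prostaglandin H2, and a terminal synthase in each cell type turns that into prostaglandin E2, prostacyclin or thromboxane. In the other branch, 5-lipoxygenase, helped by its activating protein, makes leukotriene A4, from which leukotriene B4 draws in neutrophils and leukotriene C4 tightens airways. In lung, prostacyclin is a product of vessels, leukotrienes come mainly from leukocytes, and prostaglandin E2 is made by epithelium, fibroblasts and macrophages.

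The libraries held 25566173 to 33126585 counts in the artemisinin mice and 32964061 to 34745497 in the model mice. The biological coefficient of variation, the spread between libraries beyond counting error, was 0.389 among artemisinin libraries and 0.211 among model libraries. Artemisinin replicate 2 stood apart. Its summed level of 10 keratinocyte markers was 2004 normalised CPM (CPM, counts scaled to library size, here with TMM factors), against 22.3 and 12.2 in artemisinin replicates 1 and 3 and 9.63 to 12.5 in the model. Most of the 2004 was 1 marker, Krt13, at 1440. In artemisinin replicate 2 the summed level of 10 skeletal muscle markers was 6819, against at most 60.7 in the other libraries. Fits without this library are therefore given beside the members and the pathway genes named by rule. The tissue sampled is not given, and it was looked at only through markers. Those of alveolar type 2 cells, which make surfactant, summed to 6637 to 20770 normalised CPM in the artemisinin libraries and 48960 to 72820 in the model libraries.

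Artemisinin libraries had less of the prostaglandin E2 synthase gene Ptges and more of the prostacyclin synthase gene Ptgis and of Alox5ap, the activating protein gene of 5-lipoxygenase. Ptges was 2.28-fold lower, Ptgis 2.19-fold higher and Alox5ap 2.56-fold higher. The other 7 members did not pass the threshold, set at 0.05 for the edgeR quasi-likelihood p after Benjamini-Hochberg adjustment over all 15242 genes tested. So 2 members rose and 1 fell, where 2.17% of all tested genes were higher and 2.30% lower, 4.47% in all. The 2 groups did not overlap for 5 members, 3 higher and 2 lower, where this held for 33.8% of all tested genes, 15.8% higher and 18.0% lower. Since the members were chosen with earlier results of these data known, these counts describe the members and are no test of the pathway. The median log2 fold change was 0.30 over the 10 members and 0.04 over all tested genes. With any 1 model replicate left out, 0 members were called, in fits that called only 17, 118 and 23 genes among all tested. Without artemisinin replicate 2, 4 members were called, in a fit that called 1383 genes, 8.96% of those it tested. DESeq2 called 5 members and 15.0% of all genes it tested.

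**Figure D1:**
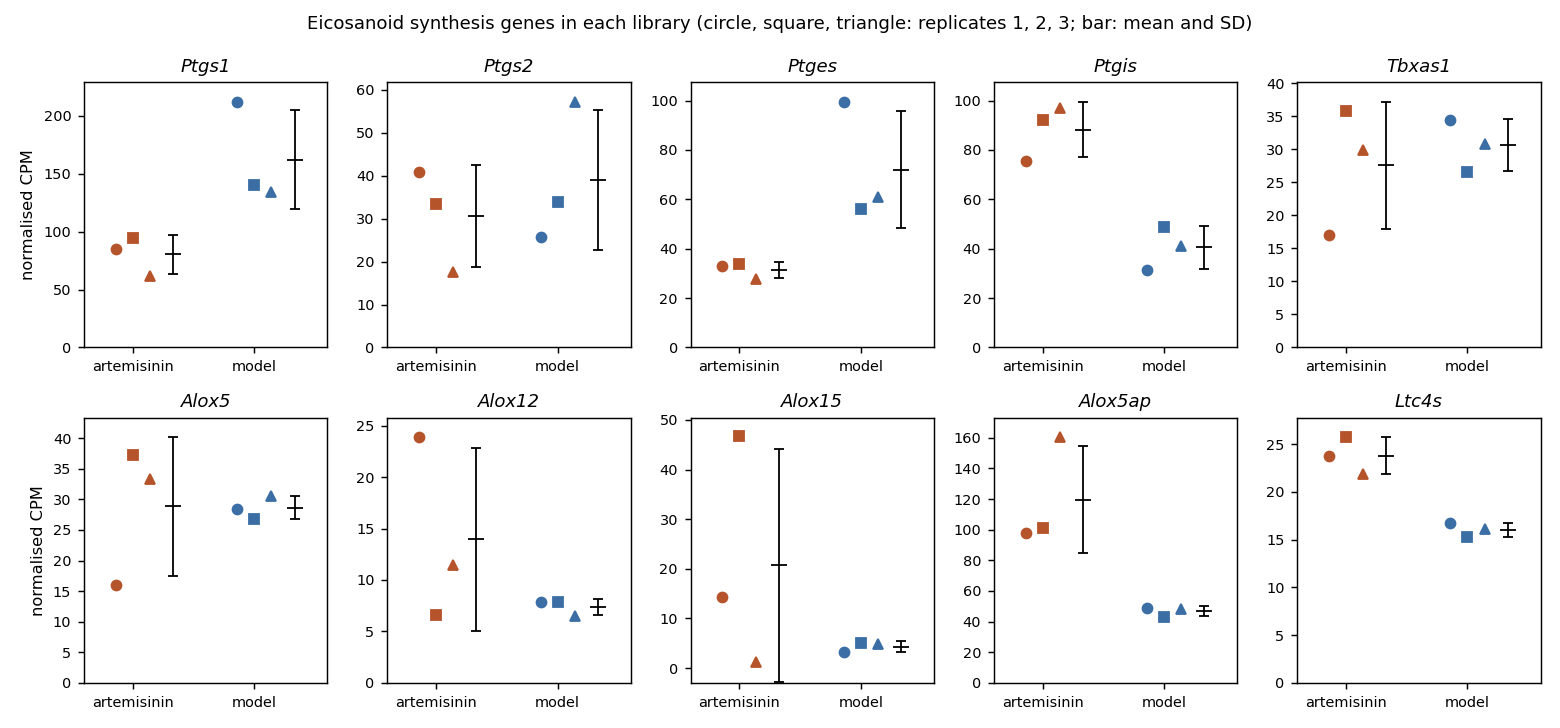
Normalised CPM of the 10 members in each library, with the artemisinin group left of the model group in each panel. Bars to the right of the points are mean and SD over 3 libraries, and the axes start at 0 except for Alox15, where the SD reaches below it. Ptgs1 and Ptges lie lower in all 3 artemisinin libraries, Ptgis, Alox5ap and Ltc4s lie higher in all 3, and Alox15 ranges from 1.17 to 46.7 within the artemisinin group.

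**Figure D2:**
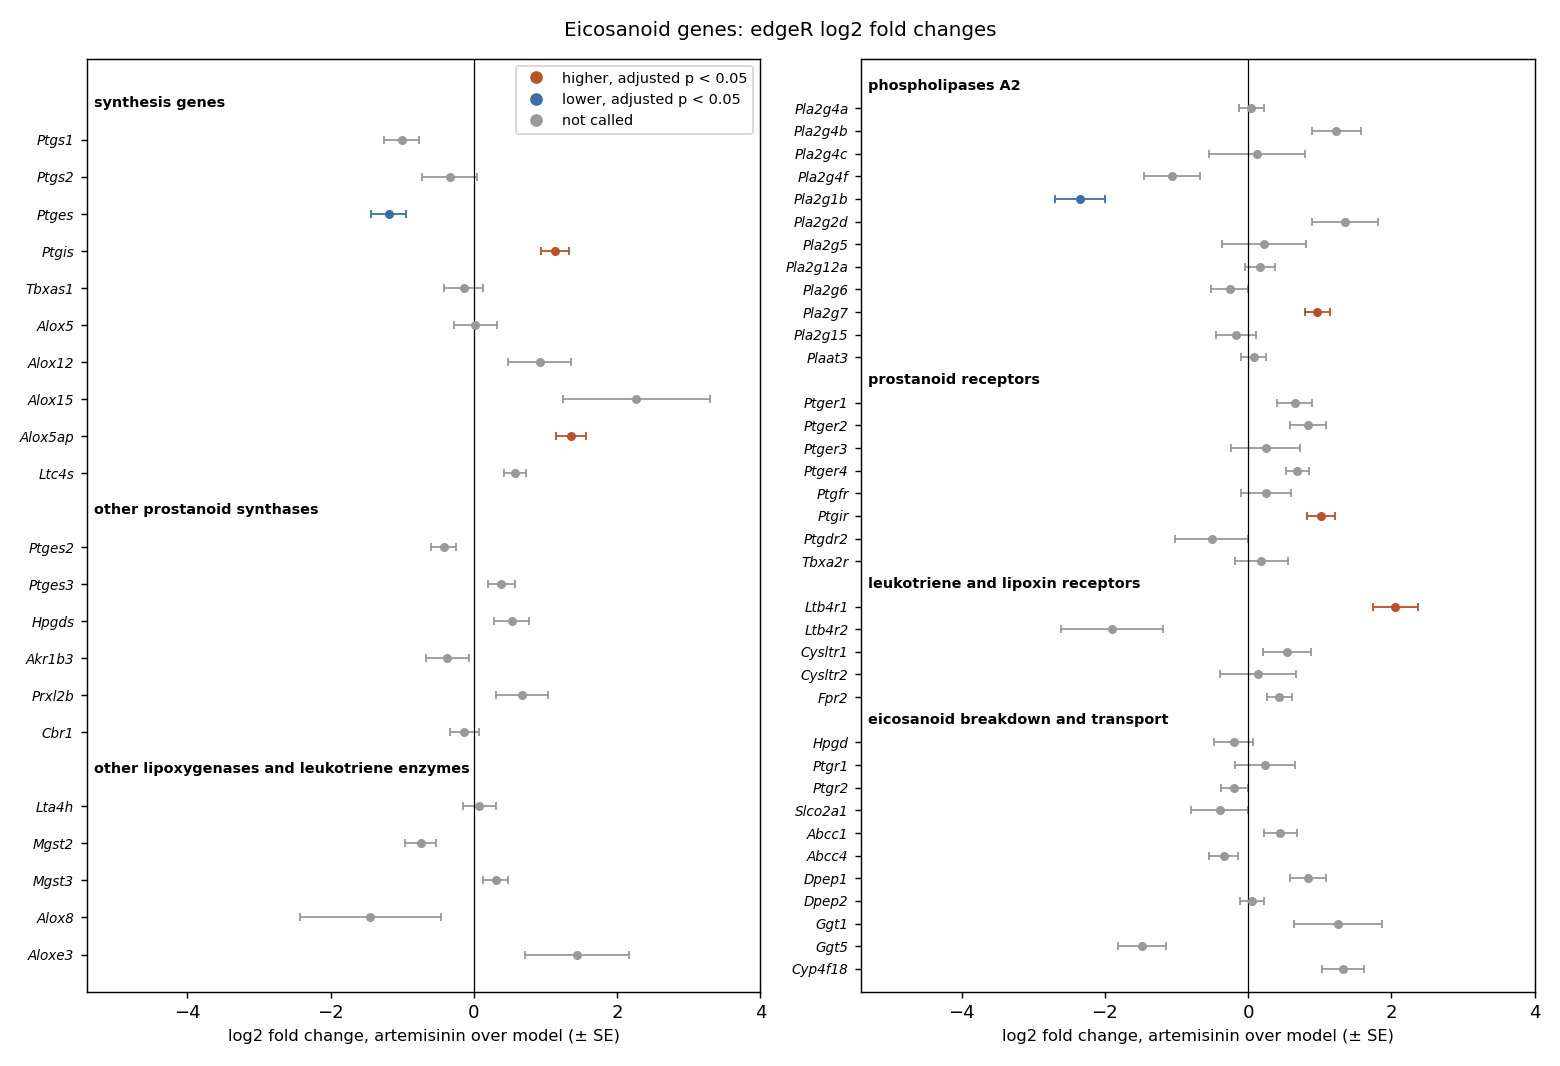
Log2 fold changes of artemisinin over model with their SE, from edgeR, for the 10 members and for the tested genes of 6 other eicosanoid gene groups. Coloured points passed an adjusted p of 0.05: Ptges and Pla2g1b lower, and Ptgis, Alox5ap, Pla2g7, Ptgir and Ltb4r1 higher.

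Cyclooxygenases make the common precursor of all prostanoids. Ptgs1, the constitutive cyclooxygenase (chromosome 2, 36216742 to 36258593, GRCm38.p6), had 84.9, 94.5 and 61.4 normalised CPM in artemisinin replicates 1 to 3, against 211.9, 140.7 and 134.1 in model replicates 1 to 3. All 3 artemisinin libraries lay below all 3 model libraries. The log2 fold change was −1.01 ± 0.24 (SE; n = 3 per group), which missed the threshold (edgeR adjusted p = 0.0629). Ptgs1 passed without artemisinin replicate 2 (log2 −1.15; edgeR adjusted p = 0.0475) and with DESeq2 (log2 −1.02; adjusted p = 0.00184). Ptgs2, the inducible cyclooxygenase (chromosome 1, 150100031 to 150108234), had 40.9, 33.4 and 17.7 normalised CPM in the artemisinin libraries, against 25.7, 33.8 and 57.2 in the model libraries. The groups overlapped, artemisinin replicate 3 being the lowest of all 6 libraries and model replicate 3 the highest. Its log2 fold change was −0.34 ± 0.38 (SE; edgeR adjusted p = 0.600), and −0.41 without artemisinin replicate 2 (edgeR adjusted p = 0.561). The ratio of Ptgs1 to Ptgs2 within a library, taken on deposited FPKM (fragments scaled to gene length and library size), was 2.73 ± 0.684 in the artemisinin libraries and 4.80 ± 2.95 in the model libraries (SD, n = 3 per group), and the groups overlapped. The length behind the Ptgs1 FPKM is 1.59 times that of its longest GENCODE coding transcript, and per kilobase of the GENCODE transcripts the ratio was 4.34 ± 1.09 in the artemisinin libraries and 7.63 ± 4.68 in the model libraries (SD). Any Ptgs1 reads from outside that transcript would make the second ratio too high.

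The 250 bases before a start site in the RefSeq promoter table are shown for both cyclooxygenase genes and for Ptges, the 2 genes with lower artemisinin values and the inducible isoform whose groups overlapped. They are read along the coding strand in GRCm38.p6, chr2:36230176-36230425 (plus strand) for Ptgs1, chr1:150099781-150100030 (plus strand) for Ptgs2 and chr2:30903298-30903547 (minus strand) for Ptges. The start site is the outer end of the gene for Ptgs2, but lies 13.7 kb inside the RefSeq gene span for Ptgs1 and 27.7 kb inside it for Ptges. These 2 windows therefore belong to inner starts of the RefSeq spans. In GENCODE M21, however, the Ptgs1 gene starts at base 36230426, directly after its window. Capitals mark matches, on either strand, to the 9 motifs searched.
Ptgs1: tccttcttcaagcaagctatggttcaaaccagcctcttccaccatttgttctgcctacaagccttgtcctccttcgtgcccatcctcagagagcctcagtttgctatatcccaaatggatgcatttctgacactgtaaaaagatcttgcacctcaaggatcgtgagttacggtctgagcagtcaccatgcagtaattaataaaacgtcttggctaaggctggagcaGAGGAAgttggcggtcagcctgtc
Ptgs2: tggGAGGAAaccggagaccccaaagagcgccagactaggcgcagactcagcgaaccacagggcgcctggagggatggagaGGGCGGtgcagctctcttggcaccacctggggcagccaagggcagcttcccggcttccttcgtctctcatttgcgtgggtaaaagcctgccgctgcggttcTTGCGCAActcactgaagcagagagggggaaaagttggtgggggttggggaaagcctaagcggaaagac
Ptges: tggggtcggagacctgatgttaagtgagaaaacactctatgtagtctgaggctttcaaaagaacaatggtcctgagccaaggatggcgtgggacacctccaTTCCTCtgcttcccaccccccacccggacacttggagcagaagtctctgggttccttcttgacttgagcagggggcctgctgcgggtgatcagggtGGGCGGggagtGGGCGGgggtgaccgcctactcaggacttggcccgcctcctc
Core promoter elements were searched as TATAAA, as CCAAT and, for the GC box bound by Sp1, as GGGCGG. Response elements were searched as TGACGTCA for cyclic AMP, as TGANTCA for AP-1, as TTNNGCAA for C/EBP factors, as CACGTG for E-box factors, as GAGGAA for the myeloid factor PU.1, and as the consensus for NF-kB. Ptges held 2 GC boxes, 53 to 48 and 42 to 37 bases before the start, Ptgs2 held 1 at 170 to 165, and Ptgs1 held 0. The GC box was found in 32.7% of 32817 RefSeq promoter windows of the same length. Ptgs2 held a match to the C/EBP motif 69 to 62 bases before the start, a motif found in 9.57% of the windows. All 3 sequences held GAGGAA or its complement, as did 23.3% of the windows. The other 6 motifs had no match in these 3 windows; over all windows TATAAA was found in 12.4%, CCAAT in 33.8%, TGACGTCA in 1.55%, TGANTCA in 6.75%, the NF-kB consensus in 1.41% and CACGTG in 6.02%. The windows were 48.0% G and C in Ptgs1, 61.6% in Ptgs2 and 59.6% in Ptges, against a median of 52.4%. Of the 10 members, 7 had an entry in the promoter table.

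Terminal synthases decide which prostanoid a cell releases. Ptges, the microsomal prostaglandin E synthase (chromosome 2, 30889471 to 30931020), had 32.8, 33.9 and 27.6 normalised CPM in the artemisinin libraries, against 99.4, 55.9 and 60.8 in the model libraries. Every artemisinin value lay below the lowest model value, and model replicate 1 stood highest. Ptges fell by 1.19 ± 0.24 on the log2 scale (SE; n = 3 per group; adjusted p = 0.0394 in edgeR). The call was lost in 10 of 15 alternative settings. Without artemisinin replicate 1 or 3 the log2 fold changes were −1.22 and −1.14 (edgeR adjusted p = 0.0884 and 0.0797), and without model replicate 1, 2 or 3 they were −0.89, −1.38 and −1.30 (edgeR adjusted p = 0.110, 0.0618 and 0.104). Without artemisinin replicate 2 it was −1.26 and called (edgeR adjusted p = 0.0444).

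Markers of alveolar type 2 cells were lower in the same 3 libraries. Of 10 such markers 5 fell and all 10 had log2 fold changes below 0, with a median of −1.93. In bulk RNA, fewer cells of a type and less RNA per cell cannot be told apart. The part of these cells in the Ptges result was not tested. The 3 genes whose pattern was most like that of Ptges over the 6 libraries, among 14389 tested genes that averaged 1 CPM or more, were Apoc1 (Pearson r of log2 normalised CPM 0.999), which encodes an apolipoprotein, Slc66a2 (0.999) and 9530077C05Rik (0.998). These correlations are descriptions over 6 libraries that share the group difference.

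Ptgis, the prostacyclin synthase (chromosome 2, 167203194 to 167252150), had 75.6, 92.3 and 96.8 normalised CPM in the artemisinin libraries, against 31.5, 48.8 and 41.3 in the model libraries. The lowest artemisinin value was above the highest model value. Ptgis rose by 1.13 ± 0.19 on the log2 scale (SE; n = 3 per group; adjusted p = 0.0278 in edgeR). Without artemisinin replicate 2 the log2 fold change was 1.09 (edgeR adjusted p = 0.0340). The call was lost without artemisinin replicate 3 (log2 1.02; edgeR adjusted p = 0.0569) and without model replicate 1, 2 or 3 (log2 0.97, 1.25 and 1.14; edgeR adjusted p = 0.117, 0.0588 and 0.117).

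Smooth muscle markers were higher in the artemisinin libraries and endothelial markers were not called. Both cell types are known sources of prostacyclin in vessels. All 9 smooth muscle markers rose, and their summed level was 1143 to 1979 normalised CPM in the artemisinin libraries and 310.5 to 474.4 in the model libraries. The top of the artemisinin range was replicate 2, where skeletal muscle markers were high. The marker Des had 635.85 there, against 342.6 and 165 in artemisinin replicates 1 and 3. Of 10 endothelial markers edgeR and DESeq2 each called 0, and 0 had an unadjusted p under 0.05 in edgeR, and their summed level was 2385, 2983 and 4821 in the artemisinin libraries against 2282, 3774 and 3760 in the model libraries. The part of smooth muscle in the Ptgis result was not tested. Within the artemisinin group Ptgis was highest in replicate 3, where the smooth muscle sum was lowest and the endothelial sum highest. Within the model group Ptgis and both sums were lowest in replicate 1 and highest in replicate 2. The part of endothelium in the Ptgis values was not tested either. The genes most like Ptgis in pattern were the galactosyltransferase gene B4galt5 (Pearson r 0.998), the mesenchymal homeobox gene Meox2 (0.997) and the deubiquitinase gene Mindy3 (0.996). An exon of the transcript 1110018N20Rik overlaps Ptgis on the opposite strand, and the strand setting of the counting was not given.

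The ratio of Ptgis to Ptges, which does not depend on library scaling, was chosen after the values of both genes were seen. On deposited FPKM it was 4.24, 5.01 and 6.46 in the artemisinin libraries, against 0.583, 1.61 and 1.25 in the model libraries. The means were 5.24 ± 1.13 in the artemisinin group and 1.15 ± 0.519 in the model group (SD, n = 3 per group). With 3 against 3 libraries an exact two-sided permutation test cannot go below p = 0.1, and no test of the ratio was made.

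Tbxas1, the thromboxane synthase of platelets and macrophages (chromosome 6, 38864159 to 39084590), had 17.0, 35.8 and 29.9 normalised CPM in the artemisinin libraries, against 34.5, 26.6 and 30.8 in the model libraries. The groups overlapped, with artemisinin replicate 1 lowest and artemisinin replicate 2 highest (log2 −0.14 ± 0.27, SE; edgeR adjusted p = 0.765). The log2 fold change was −0.38 without artemisinin replicate 2 (edgeR adjusted p = 0.365). Opposite-strand genes also share exon sequence with Tbxas1 (Gm42962) and with Ptgs1 (Gm43621), and reads of such pairs may not be told apart.

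**Figure D3:**
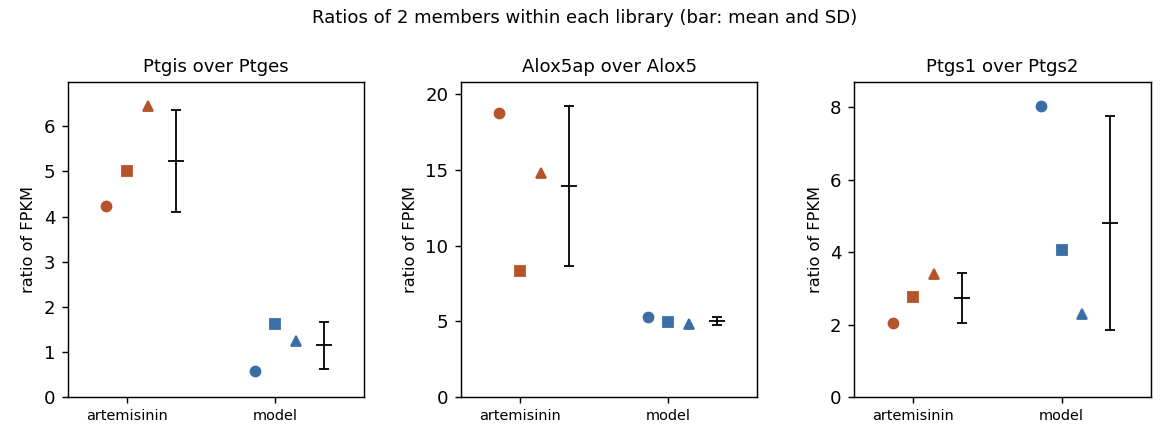
Ratios of 2 members within each library on deposited FPKM, with mean and SD over 3 libraries per group and axes from 0. The artemisinin libraries lie above all model libraries for Ptgis over Ptges and for Alox5ap over Alox5, and the groups overlap for Ptgs1 over Ptgs2.

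The leukotriene branch starts with 5-lipoxygenase and its activating protein. Alox5ap (chromosome 5, 149265004 to 149288153), which presents arachidonic acid to the enzyme at the nuclear membrane, had 97.8, 100.9 and 160.3 normalised CPM in the artemisinin libraries, against 49.1, 43.2 and 48.2 in the model libraries. All artemisinin libraries lay above all model libraries, and artemisinin replicate 3 stood highest. Alox5ap rose by 1.36 ± 0.21 on the log2 scale (SE; n = 3 per group; adjusted p = 0.0236 in edgeR). The call held without artemisinin replicate 1, 2 or 3 (log2 1.49, 1.46 and 1.05; edgeR adjusted p = 0.0408, 0.0174 and 0.0252). It was lost without model replicate 1, 2 or 3 (log2 1.39, 1.28 and 1.38; edgeR adjusted p = 0.117, 0.0922 and 0.0990).

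Markers of neutrophils and of monocytes were higher as well. Of 12 neutrophil markers 7 rose and all 12 had log2 fold changes above 0. Their summed level was 922.8, 1218 and 5073 normalised CPM in the artemisinin libraries and 186.6 to 254.9 in the model libraries, and replicate 3 was the highest artemisinin library, as for Alox5ap. Of 10 markers of monocytes and interstitial macrophages 4 rose, with sums of 879.2 to 1168 in the artemisinin libraries and 547.2 to 616.9 in the model libraries. Of 10 alveolar macrophage markers 0 rose and 1, Marco, fell, and 8 had log2 fold changes below 0. The part of these cells in the Alox5ap result was not tested. The genes most like Alox5ap in pattern were the high-affinity IgG receptor gene Fcgr1 (Pearson r 0.996), the proteinase 3 gene Prtn3 (0.994) and Rassf5 (0.993), a Ras association domain gene. The antisense gene Gm19719 shares exon sequence with Alox5ap on the opposite strand.

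Alox5, the 5-lipoxygenase (chromosome 6, 116410071 to 116461178), did not differ beyond its spread. It had 16.0, 37.2 and 33.3 normalised CPM in the artemisinin libraries, against 28.5, 26.8 and 30.6 in the model libraries. Artemisinin replicate 1 was the lowest of all 6 libraries and the other 2 artemisinin libraries were the highest (log2 0.02 ± 0.30, SE; edgeR adjusted p = 0.972), and without artemisinin replicate 2 the log2 fold change was −0.21 (edgeR adjusted p = 0.663). The ratio of Alox5ap to Alox5 on deposited FPKM, also chosen after the values were seen, was 18.8, 8.32 and 14.8 in the artemisinin libraries, against 5.29, 4.95 and 4.83 in the model libraries. The groups did not overlap.

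Ltc4s, which joins glutathione to leukotriene A4 (chromosome 11, 50236461 to 50238532), had 23.8, 25.7 and 21.9 normalised CPM in the artemisinin libraries, against 16.7, 15.2 and 16.1 in the model libraries. The groups did not overlap and both had a small spread, 23.8 ± 1.92 in the artemisinin group and 16.0 ± 0.758 in the model group (SD, n = 3 per group). The log2 fold change of 0.58 ± 0.15 (SE) missed the threshold (edgeR adjusted p = 0.0798), as did 0.51 without artemisinin replicate 2 (edgeR adjusted p = 0.107). It passed with scaling by library totals (log2 0.68; edgeR adjusted p = 0.0468), with DESeq2 (log2 0.57; adjusted p = 0.00938) and with limma on log2(FPKM + 0.1) (log2 0.67; adjusted p = 0.0275). Mast cells and eosinophils are known sources of leukotriene C4. Of 8 tested mast cell and basophil markers 0 rose and 1, Hdc, fell, with 4 log2 fold changes above 0 and 4 below. The summed level of the list was 140.1 to 226.3 normalised CPM in the artemisinin libraries and 287.8 to 322.9 in the model libraries. Without Hdc it was 73.04 to 143.2 in the artemisinin libraries and 61.38 to 119.3 in the model libraries, which overlapped. Nearly all of the sum without Hdc was Gata2, at 101, 65.5 and 140 in the artemisinin libraries and 56.9, 102 and 114 in the model libraries. The highest value of any other marker in it was 3.84, of Cma1 in artemisinin replicate 1, so this overlap rests on Gata2. Eosinophil markers summed to 17.3 to 37.1 in the artemisinin libraries and 67.5 to 75.6 in the model libraries, and of 4 tested 1, Ccr3, fell. Most of the eosinophil sum was Siglecf, which was not called (edgeR adjusted p = 0.0823). Siglecf had 12.3, 33.2 and 10.4 normalised CPM in artemisinin replicates 1 to 3 and 67.2, 47.1 and 61.4 in model replicates 1 to 3. The groups overlapped for the eosinophil markers Prg2, Il5ra, Epx and Ear6. The mast cell and basophil sum without Hdc and the eosinophil sum thus each rest mainly on 1 gene. Neither measures the number of those cells, and their part in the Ltc4s values was not tested. The antisense gene Gm26542 shares exon sequence with Ltc4s.

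The other 2 lipoxygenases varied most among the artemisinin libraries. Alox12, the platelet-type 12-lipoxygenase (chromosome 11, 70241457 to 70255380), had 23.9, 6.63 and 11.4 normalised CPM in the artemisinin libraries, against 7.86, 7.81 and 6.52 in the model libraries. The groups overlapped, since artemisinin replicate 2 lay within the model range (log2 0.92 ± 0.44, SE; edgeR adjusted p = 0.243). Without artemisinin replicate 1 the log2 fold change was 0.29 (edgeR adjusted p = 0.596), and without artemisinin replicate 2 it was 1.25 (edgeR adjusted p = 0.0659). Platelet and megakaryocyte markers were also highest in artemisinin replicate 1, with summed levels of 473.8, 126.0 and 178.6 normalised CPM in artemisinin replicates 1 to 3 and 75.4 to 118.8 in the model libraries. Of 12 such markers edgeR called 0 and DESeq2 8, 11 had an unadjusted p under 0.05 in edgeR, as had 24.6% of all tested genes, and 11 lay above 0. Their part in the Alox12 values was not tested.

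Alox15, the leukocyte-type lipoxygenase of mouse macrophages and eosinophils (chromosome 11, 70344147 to 70390538), had 14.3, 46.7 and 1.17 normalised CPM in the artemisinin libraries, against 3.16, 5 and 4.88 in the model libraries. Artemisinin replicate 2 held 63.8% of all 2351 Alox15 counts, and artemisinin replicate 3 was the lowest of the 6 libraries. The log2 fold change was 2.27 ± 1.03 (SE; edgeR adjusted p = 0.224). It was 0.83 without artemisinin replicate 2 (edgeR adjusted p = 0.547) and 2.77 and called without artemisinin replicate 3 (edgeR adjusted p = 0.0430). It was 1.01 with limma voom, 1.21 with limma on log2(FPKM + 0.1) and 0.69 on log2(FPKM + 1), none of them called (adjusted p = 0.591, 0.473 and 0.370). The keratinocyte and skeletal muscle markers were highest in artemisinin replicate 2 as well, and of the keratinocyte markers Krt14, Krt6a and Dsg3 had 0 counts in all model libraries. Alveolar macrophage markers summed to 1253, 5072 and 3372 in the artemisinin libraries and 2722 to 4376 in the model libraries. The gene Chil3 was the largest part of each sum, at 543, 4128.5 and 2536 in the artemisinin libraries and 3104, 1859 and 2717 in the model libraries. The part of these cells in the Alox15 values was not tested.

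**Figure D4:**
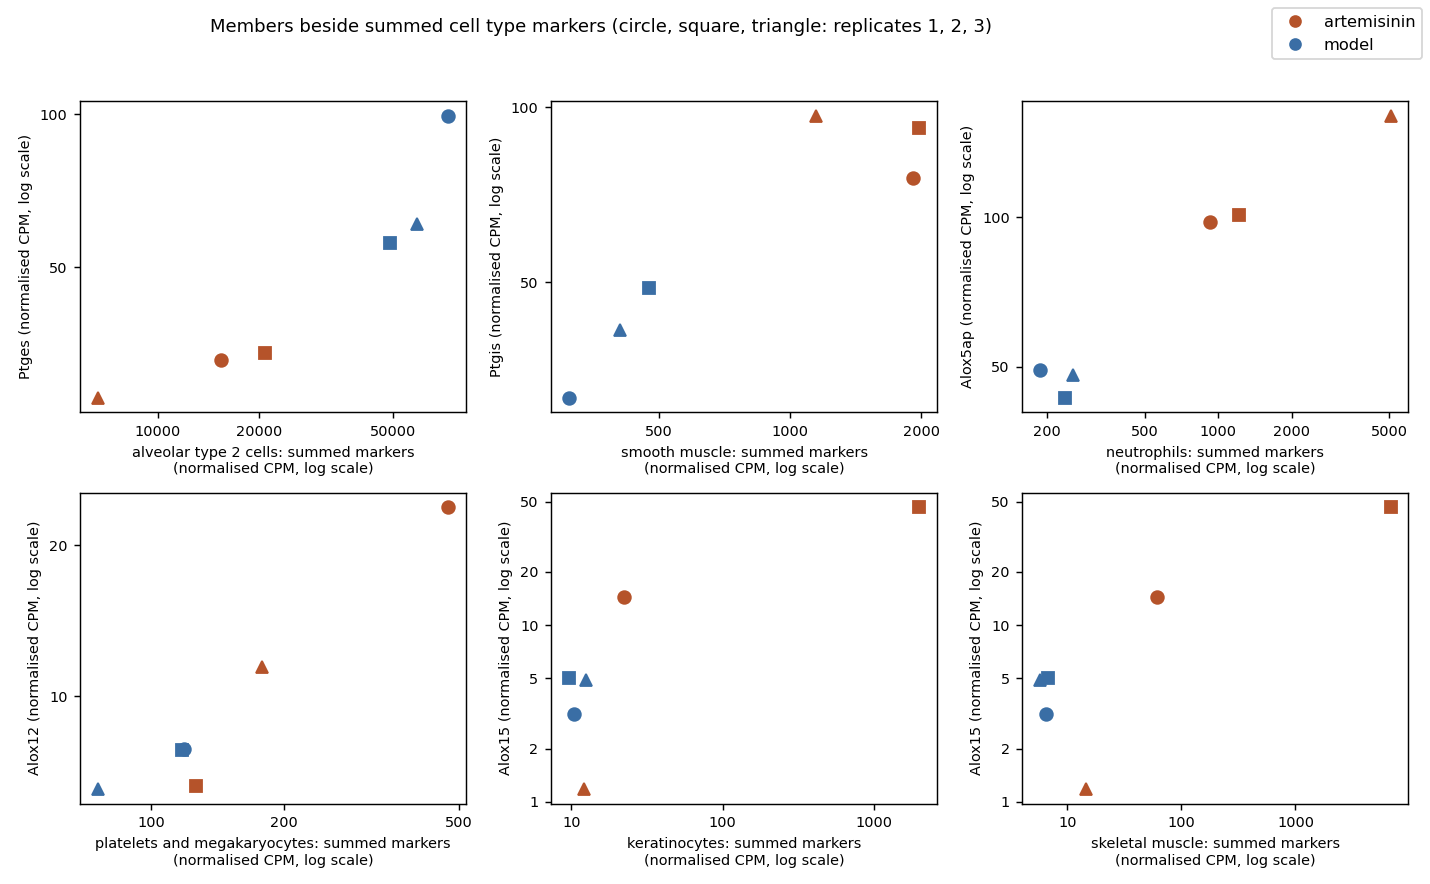
Levels of 5 members in each library against the summed level of a cell type marker list, both in normalised CPM on log axes, with panels chosen after the values were seen. Ptges and the alveolar type 2 sum are both lower in the artemisinin libraries, Ptgis and smooth muscle and Alox5ap and neutrophils are both higher, Alox12 and platelet markers are highest in artemisinin replicate 1, and Alox15 is highest in artemisinin replicate 2 with the keratinocyte and muscle sums.

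Levels between members were compared per length. On deposited FPKM, Alox5ap had the highest mean, 122.9 ± 38.0 in the artemisinin libraries and 44.5 ± 2.25 in the model libraries (SD, n = 3 per group). In the model it was followed by Ptgs1 at 34.2 ± 8.61 FPKM, and the libraries of these neighbours overlapped. Ltc4s, Ptgis and Ptges followed at 22.0 ± 0.646, 19.8 ± 4.56 and 19.0 ± 5.97, which did not differ beyond their spread. Alox5 and Ptgs2 stood at 8.86 ± 0.506 and 8.41 ± 3.51 FPKM in the model, again within their spread, and Alox12 at 2.35 ± 0.251. In the artemisinin libraries the order was Alox5ap, Ptgis at 46.2 ± 5.58, Ltc4s at 35.1 ± 2.01, Ptgs1 at 18.2 ± 3.51, Alox5 at 9.58 ± 3.59 and Ptges at 8.93 ± 0.835 FPKM.

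The lowest FPKM values, of Tbxas1 and Alox15, rest on lengths far above those of their annotated transcripts. The deposited counts and FPKM imply a length of 37.77 kb for Tbxas1 and 15.29 kb for Alox15, against 1.99 and 2.41 kb for their longest coding transcripts in GENCODE M21. For Ptgs1 the implied length was 4.56 kb against 2.87 kb, and for the other 7 members the ratio of the implied to the GENCODE length was 0.811 to 1.1. Per kilobase of the GENCODE transcript, Tbxas1 had 13.9 ± 4.83 normalised CPM in the artemisinin libraries and 15.4 ± 1.97 in the model libraries, where its deposited FPKM were 0.754 ± 0.246 and 0.780 ± 0.0863. On that scale Ptgs1, at 56.6 normalised CPM per kilobase, and not Alox5ap, at 37.5, was the highest member in the model. The counts of Tbxas1, Alox15 and Ptgs1 may include reads from outside the GENCODE transcript. If so, their values per kilobase are too high, and which scale is nearer the true level was not tested. Fold changes between groups do not depend on the length used, but would include any such reads.

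Other genes of the pathway were taken as 6 lists with 56 genes in the table, of which 47 were tested. Of these 3 rose and 1 fell, with a median log2 fold change of 0.18, and the groups did not overlap for 19. Over all tested genes 4.47% were called and the groups did not overlap for 33.8%. These lists, too, were chosen with earlier results of these data known. Of the 3 genes that rose 2 were receptors, Ptgir for prostacyclin and Ltb4r1 for leukotriene B4.

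Of 8 tested prostanoid receptors 1 rose, 0 fell and 7 were not called, with a median log2 fold change of 0.45. Ptgir, the prostacyclin receptor (chromosome 7, 16906490 to 16910905), had 15.0, 16.0 and 16.3 normalised CPM in the artemisinin libraries, against 6.65, 9.02 and 7.81 in the model libraries. The groups lay well apart and Ptgir rose by 1.01 ± 0.20 on the log2 scale (SE; adjusted p = 0.0372 in edgeR). The call was lost without artemisinin replicate 1 or 3 (log2 1.05 and 0.95; edgeR adjusted p = 0.0617 and 0.0802), without model replicate 1, 2 or 3 (log2 0.91, 1.1 and 1.01; edgeR adjusted p = 0.151, 0.0948 and 0.161) and in the fit with a block for replicate numbers (edgeR adjusted p = 0.0921). Ptger4, a receptor for prostaglandin E2, had 22.0, 19.0 and 19.6 normalised CPM in the artemisinin libraries, against 12.4, 13.6 and 11.8 in the model libraries (log2 0.69 ± 0.16, SE; edgeR adjusted p = 0.0608). Leaving out artemisinin replicate 2, the log2 fold changes were 1 for Ptgir and 0.72 for Ptger4 (edgeR adjusted p = 0.0468 and 0.0594).

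Of 5 tested leukotriene and lipoxin receptors 1 rose, 0 fell and 4 were not called. Ltb4r1, the high-affinity leukotriene B4 receptor of leukocytes (chromosome 14, 55765962 to 55768492), had 11.4, 9.58 and 17.9 normalised CPM in the artemisinin libraries, against 2.52, 3.55 and 3.31 in the model libraries. It was 4.15-fold higher (log2 2.05 ± 0.32, SE; adjusted p = 0.0224 in edgeR), and artemisinin replicate 3, highest in neutrophil markers, was highest here too. The log2 fold change was 2.22 without artemisinin replicate 2 (edgeR adjusted p = 0.0153), and the call was lost without model replicate 1, 2 or 3 (log2 1.92, 2.13 and 2.09; edgeR adjusted p = 0.111, 0.0725 and 0.0946) and with the replicate block (edgeR adjusted p = 0.0561). Its neighbour Ltb4r2, the low-affinity receptor, had 64 counts in all 6 libraries and was not called (log2 −1.90 ± 0.71, SE; edgeR adjusted p = 0.163; −2.65 and 0.0941 without artemisinin replicate 2).

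Of 12 tested genes in the phospholipase A2 list 1 rose, 1 fell and 10 were not called. Pla2g1b, a secreted phospholipase of pancreas and lung (chromosome 5, 115466142 to 115474722), had 5.10, 3.86 and 2.80 normalised CPM in the artemisinin libraries, against 24.6, 12.5 and 22.8 in the model libraries. It fell by 2.34 ± 0.35 on the log2 scale (SE; adjusted p = 0.0210 in edgeR), and by as much without artemisinin replicate 2 (edgeR adjusted p = 0.0260). Its call was lost without model replicate 1 or 3 (log2 −2.17 and −2.24; edgeR adjusted p = 0.101 and 0.0914), with the replicate block (edgeR adjusted p = 0.0515) and with limma voom (adjusted p = 0.1). Pla2g7 (chromosome 17, 43567994 to 43612202), which degrades platelet-activating factor and does not supply arachidonic acid, had 96.3, 82.2 and 67.6 normalised CPM in the artemisinin libraries, against 48.3, 39.5 and 38.7 in the model libraries. It rose by 0.97 ± 0.17 on the log2 scale (SE; adjusted p = 0.0303 in edgeR), and was not called without artemisinin replicate 1 (log2 0.84; edgeR adjusted p = 0.0592), without model replicate 1, 2 or 3 (log2 1.07, 0.89 and 0.90; edgeR adjusted p = 0.110, 0.116 and 0.14) or with the replicate block (edgeR adjusted p = 0.0530). It was called without artemisinin replicate 2 (log2 0.96; edgeR adjusted p = 0.0365). Pla2g4a, the cytosolic phospholipase that releases arachidonic acid, had 39.2 ± 6.78 normalised CPM in the artemisinin group and 38.2 ± 3.70 in the model group (SD, n = 3 per group; edgeR adjusted p = 0.888), and was named after its value was seen.

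**Figure D5:**
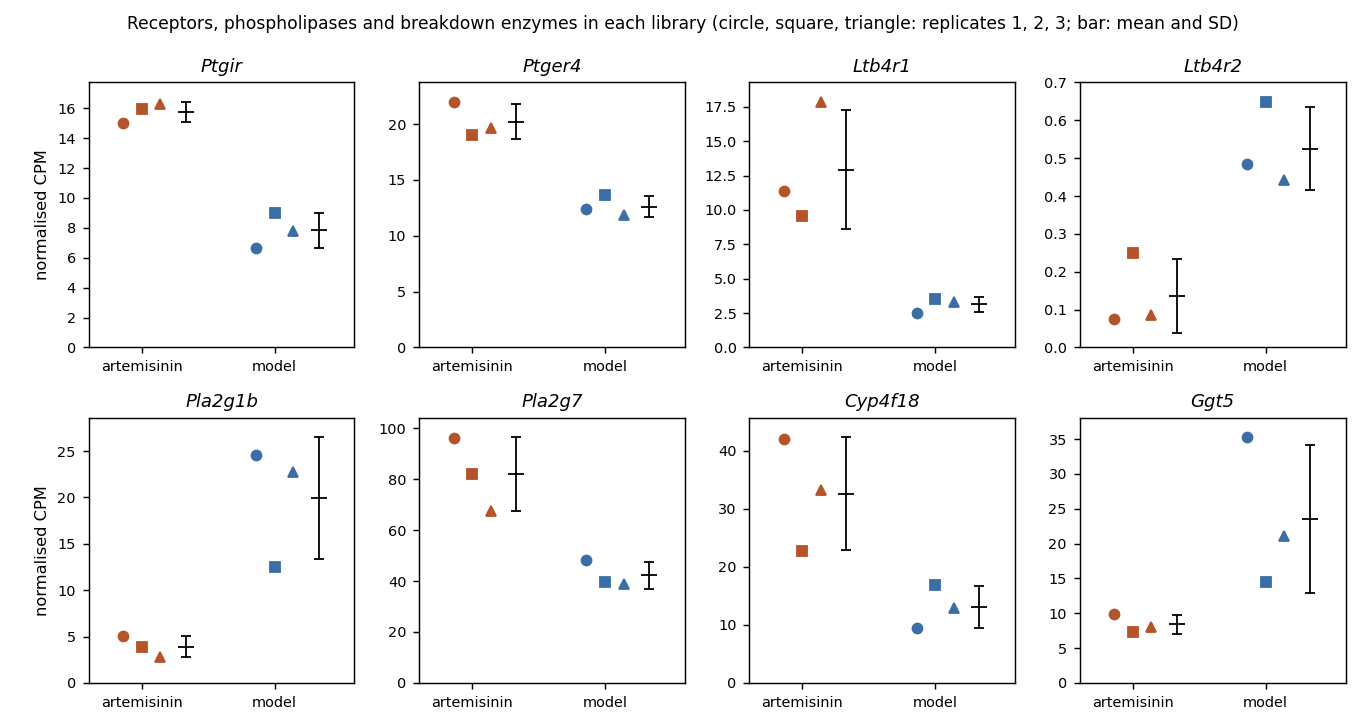
Normalised CPM of 8 other pathway genes in each library, with the artemisinin group left of the model group, mean and SD over 3 libraries per group and axes from 0. Ptgir, Ltb4r1 and Pla2g7 passed the threshold higher and Pla2g1b lower, and Ptger4, Ltb4r2, Cyp4f18 and Ggt5 did not pass although their groups do not overlap.

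None of the 11 genes of eicosanoid breakdown and transport was called in edgeR with all 6 libraries and TMM scaling. At an unadjusted p under 0.05 there were 3, where 24.6% of all tested genes had one, and DESeq2 called 3 (Cyp4f18 and Dpep1 higher, Ggt5 lower). Cyp4f18, which hydroxylates leukotriene B4 in mouse neutrophils, had 42, 22.7 and 33.2 normalised CPM in the artemisinin libraries, against 9.47, 16.8 and 13.0 in the model libraries (log2 1.32 ± 0.29, SE; edgeR adjusted p = 0.0504). It was called without artemisinin replicate 2 (log2 1.52; edgeR adjusted p = 0.0240) and with scaling by library totals (log2 1.44; edgeR adjusted p = 0.0470). Ggt5, which trims leukotriene C4 to leukotriene D4, had 9.93, 7.31 and 8.04 normalised CPM in the artemisinin libraries, against 35.2, 14.5 and 21 in the model libraries (log2 −1.48 ± 0.34, SE; edgeR adjusted p = 0.0542; −1.39 and 0.0739 without artemisinin replicate 2). Both sets of values were separate between the groups.

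None of the 6 tested prostanoid synthases outside the members was called in edgeR with all 6 libraries, with 1 at an unadjusted p under 0.05, and DESeq2 called 0. Without artemisinin replicate 2 edgeR called 1 lower, the aldose reductase gene Akr1b3 (log2 −0.81; edgeR adjusted p = 0.0258), named here after its value was seen. Ptges2, another prostaglandin E synthase, had 14.6 ± 1.58 normalised CPM in the artemisinin group and 19.6 ± 1.86 in the model group (SD, n = 3 per group; edgeR adjusted p = 0.189). Hpgds, the haematopoietic prostaglandin D synthase, had 8.33 ± 1.29 in the artemisinin group and 5.79 ± 0.640 in the model group (edgeR adjusted p = 0.231). Without artemisinin replicate 2 the log2 fold changes were −0.49 for Ptges2 and 0.64 for Hpgds (edgeR adjusted p = 0.149 and 0.160). None of the 5 tested lipoxygenases and leukotriene enzymes outside the members was called in edgeR either, with 1 at an unadjusted p under 0.05, while DESeq2 called 1. That gene was Mgst2, which can also make leukotriene C4, with 12.5 ± 2.11 normalised CPM in the artemisinin group and 21 ± 4.09 in the model group (edgeR adjusted p = 0.0999; DESeq2 adjusted p = 0.0210), and a log2 fold change of −0.67 without artemisinin replicate 2 (edgeR adjusted p = 0.128).

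A few genes of these lists had nearly all their counts in artemisinin replicate 2, and 3 are named here after their values were seen. Alox12b, a lipoxygenase of the epidermal barrier, had 545 of its 550 counts there, 99.1%. The phospholipase genes Pla2g2f and Pla2g4e had 97.6% of 211 and 93.9% of 347 counts in that library. None of these 3 passed the filter on low counts, and keratinocyte markers were high in the same library. Of the other epidermal lipoxygenases, Alox12e and Alox8 did not share the pattern. Alox12e had 58.7% of its 46 counts in artemisinin replicate 3, and Alox8 43.8% of its 146 in model replicate 1. Aloxe3, the partner of Alox12b in skin, was also highest in artemisinin replicate 2, with 50.9% of its 479 counts. Aloxe3 had 2.40, 7.59 and 1.06 normalised CPM in the artemisinin libraries, against 1.79, 1.23 and 1.07 in the model libraries (log2 1.44 ± 0.72, SE; edgeR adjusted p = 0.262; 0.33 and 0.724 without artemisinin replicate 2).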

How the data were processed

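RNA-seq was made from 6 mice, 3 per group, with a stranded mRNA kit after total RNA extraction, per the labels' protocols. The authors deposited whole-number counts per gene and FPKM per gene in 2 tables of all 6 libraries; no column belonged to other samples. The genome build was GRCm38 (mm10), per the submitters' processing notes. The aligner, the counter, the annotation and the strand setting are not given in the sources used here. Over genes with enough counts to compare, the deposited FPKM were proportional to the deposited counts over each library's total, so they are no independent measurement.

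The test was the quasi-likelihood one of edgeR 4.0.16 (R 4.3.3) on the deposited counts, after filterByExpr (15242 of 18238 genes kept), with TMM scaling and robust dispersions. Calls needed a Benjamini-Hochberg adjusted p under 0.05. Fold changes are artemisinin over model. Normalised CPM are counts over the TMM-scaled library total, on the usual CPM scale. In the smallest library 3 counts are worth 0.117 CPM, which covers counting error only. Alternatives were scaling by library totals, DESeq2 1.42.0, no filter on low counts, a filter at a mean of 1 CPM, limma 3.58.1 (voom with group weights, and log2(FPKM + 0.1) or log2(FPKM + 1) at a mean of at least 0.5 FPKM or with no filter), the replicate number as a block, and leaving out each replicate. The edgeR steps were tested on simulated data.

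The members, the other pathway lists and the cell type marker lists were chosen with earlier results of these data known. Named were all members, in each other pathway list the called genes and the 2 with the smallest p, and for each called member the 3 genes most like it in pattern. Entrez numbers were matched to RefSeq for 18124 genes, 1 listed gene through an older symbol, and 1 listed marker, Tpsab1, was not matched. Positions and promoter sequences came from RefSeq (GRCm38.p6) and transcript lengths and exon overlaps from GENCODE M21.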

Additional observations from a re-analysis of the deposited data

How the results depend on the processing

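Genes called over the whole table numbered 682 (331 higher, 351 lower), against 2286 with DESeq2 (1234 higher, 1052 lower), 438 with limma on unfiltered FPKM (198 lower) and 17 to 1383 with 1 replicate left out (6 to 670 higher, 11 to 713 lower). Deviations of same-numbered libraries from their group means correlated at 0, −0.149 and 0.04 over 14389 genes, so no pairing by replicate number was seen. With 3 libraries per group these deviations sum to 0 within each group, so the check cannot exclude pairing. With the replicate number as a block 128 genes were called (65 higher, 63 lower), with 1 member called (1 higher, 0 lower) and 0 pathway genes higher or lower. Called members numbered 3, against 5 with DESeq2 (2 lower) and 0 to 4 with 1 replicate left out (0 to 2 higher, 0 to 2 lower). Members called lower numbered 0 with limma voom and with each limma fit on FPKM. Of the other pathway genes 5 were called higher with scaling by library totals, 9 with DESeq2 and 0 to 4 with 1 replicate left out, and 3 were called lower with DESeq2, 0 with limma voom and 0 to 2 with 1 replicate left out.

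The log2 fold change of Ptges stayed below 0 in all 15 settings but was not called with limma voom (−1.15), limma on log2(FPKM + 0.1), filtered or not (−1.04 each), on log2(FPKM + 1) (−0.97) and the replicate block (−1.15), and ranged over −1.38 to −0.89 with 1 replicate left out. That of Ptgs1 was −1.02 and called with DESeq2 and ranged over −1.15 to −0.77. Ptgis and Alox5ap were each called in 11 of 15 settings, ranging over 0.97 to 1.25 and 1.05 to 1.49 with 1 replicate left out, and Alox5ap was 1.32 and not called with the block. Ltc4s was called in 5 settings, at 0.68 with library totals and 0.57 with DESeq2. The others were limma fits on FPKM, at 0.67 and 0.65 with the filter and 0.67 without it. With 1 replicate left out Ptgs2 ranged over −0.6 to 0.04, Tbxas1 over −0.38 to 0.11 and Alox5 over −0.21 to 0.31. These members, not called, crossed 0: Ptgs2 (0.04 without model replicate 3), Tbxas1 (0.11 without artemisinin replicate 1) and Alox5 (−0.04 with limma voom, −0.07 with the block, −0.21 and −0.14 without artemisinin replicate 2 or 3, −0.06 without model replicate 2). Alox15 ranged over 0.83 to 2.77 with 1 replicate left out, and over 0.69 to 2.77 in all 15 settings. The median log2 fold change of all tested genes was 0.04, and 0.15 with scaling by library totals. The causes were not tested. With 3 libraries per group, a gene that was not called may still differ.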

Other observations

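Of the remaining marker lists, club and ciliated cell markers summed to 72750, 20820 and 28700 normalised CPM in artemisinin replicates 1 to 3, against 8230, 20700 and 13540 in model replicates 1 to 3, and 0 of 10 were called in edgeR and 5 in DESeq2, with 6 at an unadjusted p under 0.05. Fibroblast and pericyte markers summed to 1334, 2491 and 1665 in the artemisinin libraries, against 1231, 1454 and 1320 in the model libraries, and 1 of 10, Cspg4, rose. B cell markers summed to 294.6, 152.8 and 262.8 in the artemisinin libraries, against 91.5, 206.1 and 163.1 in the model libraries, and 0 of 6 were called in edgeR and in DESeq2, with 1 at an unadjusted p under 0.05 in edgeR.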
